A study of Homo sapiens with 4 samples.

Results

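Replication-dependent histone genes encode the linker histone H1 and the core histones H2A, H2B, H3 and H4 that package newly made DNA. The genes described here were those with a symbol from HIST1H to HIST4H, leaving out symbols that end in P and a number. By this rule 85 of 86 matching symbols were members, and 84 of them had a sense-strand entry, out of 57428 genes with such an entry in the whole data set. Of the members with an entry, 13 are pseudogenes by annotated type whose symbols pass the rule. HIST2H2BC had no strand in the annotation used and was not analysed here.

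Nascent RNA was measured by Bru-seq, in which cells take up bromouridine and the labelled RNA is captured with an antibody. All libraries came from U2OS cells, a human osteosarcoma line, stably overexpressing the decapping cofactor DCP1a fused to GFP and kept under 100 µg/mL G418. The hypertonic group (2 libraries) was in medium with 300 mM sodium, made with 10-fold concentrated phosphate-buffered saline, and the isotonic group (2 libraries) was in medium with 150 mM sodium, after a mock addition of normal-strength saline. Cells of both groups had 2 mM bromouridine for 30 min, with no chase. The labels give neither the length of the salt exposure nor whether replicates were separate cultures, so p-values measure only how far these libraries differ, and that spread may be technical.

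Histone genes of this class are made mainly in S phase, when DNA is copied. Their transcripts have no introns and end not in a poly(A) tail but at a short RNA hairpin, the histone stem-loop, bound by the protein SLBP. The U7 small nuclear RNA pairs downstream of the hairpin, and the endonuclease CPSF3 cuts the transcript between them. The coactivator NPAT gathers at histone genes in nuclear histone locus bodies. Because these are bulk samples, fewer cells in S phase and less histone RNA per cell cannot be told apart.

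The stem-loop, where these transcripts normally end, was found in the annotated transcripts of 34 of the 84 members (40.5%) with a pattern of 16 bases (GGNNCTT, then NTNAG, then NGCC, with N any base) on the sense strand, against 72 of 58676 genes overall (0.123%). Many other members are annotated over the coding part only, so their hairpin lies outside the annotated transcript. Hairpins of members that the results turn on are shown 5′ to 3′ as DNA letters on the gene's own strand, with the hairpin in capitals and 5 flanking bases on each side in lower case.
HIST1H4B: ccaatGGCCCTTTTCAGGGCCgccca
HIST1H4E: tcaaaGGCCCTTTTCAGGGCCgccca
HIST1H4I: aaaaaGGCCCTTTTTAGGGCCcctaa
HIST1H3E: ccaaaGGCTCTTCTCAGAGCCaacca
HIST1H3G: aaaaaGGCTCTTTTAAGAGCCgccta
HIST1H2AC: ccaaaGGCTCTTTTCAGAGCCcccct
HIST1H2AG: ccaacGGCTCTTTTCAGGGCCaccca
HIST1H2BD: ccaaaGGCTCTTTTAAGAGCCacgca
HIST1H2BE: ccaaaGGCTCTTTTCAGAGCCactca

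On GRCh38 the HIST1H4B hairpin with its flanks lies at chr6:26026896-26026921 on the minus strand, and that of HIST1H2BE at chr6:26184205-26184230 on the plus strand. The stem of every H4 hairpin found begins with GGCCC, in 2 loop versions found 5 and 3 times. Most H2A, H2B and H3 hairpins carried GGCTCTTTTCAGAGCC, which was found 20 times among 35 hairpins. HIST1H4B and HIST1H4I, which had the lowest and the highest log2 fold change of the H4 genes, have different loop versions. HIST1H2BE and HIST1H2AC, which had fold changes of opposite sign, have the same 16 capital letters.

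H2A and H2B genes often stand head to head and share a start region. RefSeq start regions of 300 bases (250 before and 50 after the start, GRCh38.p14) were matched for 61 members. The octamer ATTTGCAT, the site of the transcription factor POU2F1, was searched on both strands. It was present at 9 of 13 H2B genes (69.2%), at 11 of 16 H2A genes (68.8%) and at 0 H1, H3 and H4 genes, against 1.77% of 35116 RefSeq start regions. The pattern CCAAT, searched on both strands, was present at 83.6% of the members and 34.6% of all start regions. The pattern TATAAA, searched in the same way, was present at 68.9% of the members and 11.5% of all start regions. The start regions of HIST1H2BJ (chr6:27132746-27133045, minus strand) and HIST1H2AC (chr6:26123922-26124221, plus strand) are shown because each is shared with a divergent partner, and both genes of the first pair had positive fold changes whereas those of the second pair had opposite signs. Capitals mark the octamer, written as its reverse complement at HIST1H2AC.
HIST1H2BJ: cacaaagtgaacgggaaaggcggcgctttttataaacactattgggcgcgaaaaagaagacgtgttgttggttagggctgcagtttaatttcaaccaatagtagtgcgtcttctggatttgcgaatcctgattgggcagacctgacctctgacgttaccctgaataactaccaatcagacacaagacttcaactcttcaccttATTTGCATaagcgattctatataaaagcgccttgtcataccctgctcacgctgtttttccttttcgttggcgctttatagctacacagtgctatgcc
HIST1H2AC: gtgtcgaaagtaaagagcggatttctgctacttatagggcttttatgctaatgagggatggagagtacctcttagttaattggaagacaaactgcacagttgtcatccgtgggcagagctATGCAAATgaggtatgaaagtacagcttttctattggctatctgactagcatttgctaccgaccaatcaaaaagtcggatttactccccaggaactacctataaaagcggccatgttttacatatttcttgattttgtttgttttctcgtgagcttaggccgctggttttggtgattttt

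Total counts were 28367788 and 23048409 in the hypertonic libraries and 44888307 and 23410787 in the isotonic libraries. Across 21238 tested genes, log2 levels correlated at 0.904 between the hypertonic libraries and at 0.980 between the isotonic ones, and at 0.911 to 0.960 between groups. These correlations are across genes, which are not replicates. Antisense reads made up 8.60 and 6.03% of the counts in the hypertonic libraries and 3.17 and 3.36% in the isotonic ones. Of the markers checked, VIM, RUNX2, SPARC and COL1A1, which mark mesenchymal and bone cells, were measured at 42.3 CPM or more in every library, and COL1A2 was at or near 0. Of 6 markers of other cell types, the T-cell gene CD3E was at 0, PECAM1, PTPRC, CDH1 and EPCAM were below 10 CPM, and the keratin KRT8 measured 31.9 and 40.3 CPM in hypertonic cells and 15.6 and 22.6 CPM in isotonic cells. The part of these shifts in the values of histone genes was not tested. DCP1A, the gene the cells overexpress, had 314 and 199 CPM in hypertonic cells and 283 and 630 CPM in isotonic cells. CPM here is the count scaled to library size, with the TMM factors of the edgeR package.

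Enough reads to be tested were found for 32 members, and 52 were too low. No member passed the threshold of adjusted p 0.05 in edgeR's quasi-likelihood test with Benjamini-Hochberg adjustment, nor did any of the 21238 genes tested (0.0%). The lowest adjusted p among members was 0.335. At an unadjusted p under 0.05 only HIST1H2BE stood out, on the higher side, where 8.89% of all genes were; 0 members were on the lower side, where 2.01% of all genes were. DESeq2 called 0 members and 731 genes (3.44%), and limma-voom called 0 members and 0 genes. The log2 fold change of hypertonic over isotonic cells was negative for 22 of the 32 members, against 47.6% of all tested genes, and positive for 10, against 52.4% of all tested genes. With libraries scaled by total sense counts the split was 17 negative to 15 positive. The members' median was −0.33, against 0.04 for all tested genes. Total-count scaling raised both medians, to −0.10 for members and 0.26 for all genes, so the gap between them was −0.37 with TMM and −0.36 with total counts. Leaving out hypertonic replicate 1 gave a members' median of −0.08, and leaving out hypertonic replicate 2 gave −0.61.

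In 11 of the 32 tested members each hypertonic library was lower than each isotonic library, against 17.5% of all tested genes. In 3 members each hypertonic library was higher, against 22.5% of all tested genes. These counts were 10 and 3 with total-count scaling. The shares of all tested genes with that scaling are not given here, so these counts have no background beside them. Protein-coding genes of higher isotonic level also had mostly negative fold changes. Of 4941 such tested genes at 1 RPKM or more (reads scaled by length and library), 4099 had negative fold changes, 2094 had lower values in each hypertonic library than in each isotonic library, and their median log2 fold change was −0.39, close to that of the histone genes. The isotonic level chose these genes and enters their fold change.

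**Figure D1:**
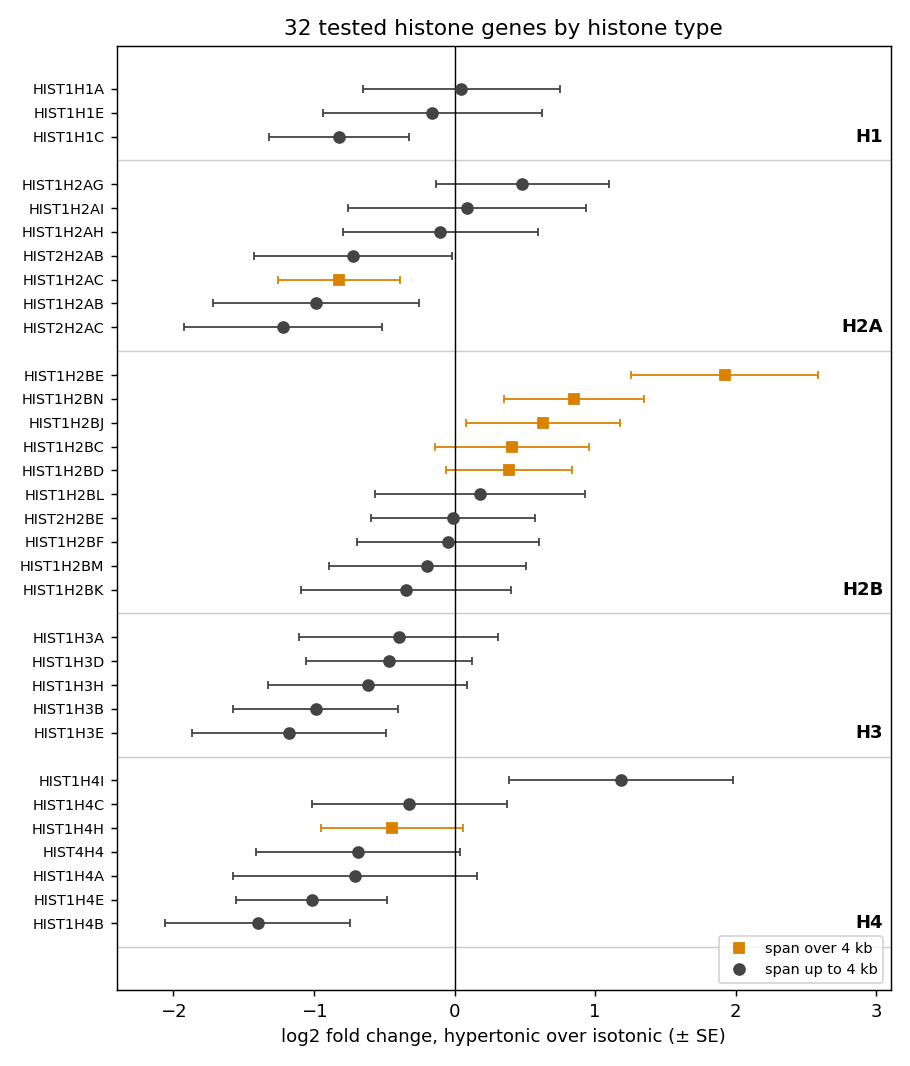
Log2 fold change of hypertonic over isotonic cells, with its standard error, for the 32 tested histone genes grouped by histone type; orange squares mark genes with an annotated span over 4 kb. The 5 H3 genes lie left of 0, and the 5 H2B genes with long spans lie right of 0, with HIST1H2BE farthest right at 1.92.

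Per kilobase, the histone genes with the highest isotonic levels were HIST1H1C at 51.5 RPKM, HIST1H4B at 48.6 RPKM and HIST1H3B at 32.5 RPKM. The isotonic libraries of HIST1H4B were far apart, at 71.4 and 25.8 RPKM, and overlapped those of its neighbours in this order. HIST1H1E, HIST1H4E and HIST1H1A came next at 14.2, 14.0 and 13.9 RPKM, and these 3 did not differ beyond the spread of their libraries. The other 26 tested members were below 10 RPKM in isotonic cells. Of the 6 members above that level, 4 had both hypertonic RPKM values below both isotonic ones. The exceptions were the linker histone genes HIST1H1E and HIST1H1A. By TMM-scaled CPM, 17.5% of all tested genes were lower in this way. So were 2094 of the 4941 tested protein-coding genes at 1 RPKM or more. The isotonic level that chose the 6 members also enters this comparison.

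Among the linker histones, which bind DNA between nucleosomes, 3 of 7 members were tested, and the hypertonic libraries disagreed with each other. HIST1H1C (chr6:26055787-26056428, minus strand) measured 17.5 and 30.6 CPM in hypertonic cells and 38.6 and 46.4 CPM in isotonic cells. The groups did not overlap, and its log2 fold change was −0.82 ± 0.50 (SE, n = 2 libraries in each group; edgeR adjusted p = 0.642). HIST1H1E measured 3.80 and 21.0 CPM in hypertonic cells and 11.3 and 16.4 CPM in isotonic cells. HIST1H1A measured 5.11 and 18.5 CPM in hypertonic cells and 13.2 and 9.65 CPM in isotonic cells. For both, hypertonic replicate 1 was below and hypertonic replicate 2 above the isotonic libraries. The H1 median was −0.16 with TMM scaling and turned to 0.20 with total-count scaling. Leaving out hypertonic replicate 1 gave 0.57, and leaving out hypertonic replicate 2 gave −1.28.

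H3 and H4 form the core tetramer of the nucleosome. All 5 tested H3 genes of 16 members had negative fold changes, with a median of −0.62. In 3 of them the groups did not overlap, against 17.5% of all tested genes lower in that way. So were 2094 of 4941 tested protein-coding genes at 1 RPKM or more. HIST1H3B (chr6:26031650-26032060, minus strand) measured 9.88 and 7.15 CPM in hypertonic cells and 21.1 and 12.7 CPM in isotonic cells, a log2 fold change of −0.99 ± 0.58. HIST1H3E measured 3.17 and 3.54 CPM in hypertonic cells and 10.5 and 4.59 CPM in isotonic cells, a log2 fold change of −1.18 ± 0.69. In HIST1H3A, with 3.97 and 2.36 CPM in hypertonic cells and 5.42 and 2.89 CPM in isotonic cells, the groups overlapped.

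Of the 15 H4 members 7 were tested, and 6 had negative fold changes, with a median of −0.69 over the 7. In 3 the groups did not overlap, with the hypertonic libraries lower, against 17.5% of all tested genes. Of tested protein-coding genes at 1 RPKM or more, 2094 of 4941 were lower in that way. The H4 median was −0.36 with total-count scaling, −0.41 when hypertonic replicate 1 was left out and −0.95 when hypertonic replicate 2 was. HIST1H4B (chr6:26026815-26027252, minus strand) had the most negative log2 fold change of all members, −1.40 ± 0.66 (edgeR adjusted p = 0.496). It measured 13.9 and 6.40 CPM in hypertonic cells and 38.3 and 15.2 CPM in isotonic cells, so the highest hypertonic value came close to the lowest isotonic value. HIST1H4E measured 13.7 and 12.3 CPM in hypertonic cells and 33.0 and 19.6 CPM in isotonic cells, a log2 fold change of −1.02 ± 0.54. HIST4H4, the lone member on chromosome 12, measured 1.27 and 0.904 CPM in hypertonic cells and 1.89 and 1.6 CPM in isotonic cells. HIST1H4I was the exception, at 1.94 and 5.62 CPM in hypertonic cells and 2.11 and 1.19 CPM in isotonic cells. Its log2 fold change was 1.19 ± 0.80, and 0.21 without hypertonic replicate 2, since hypertonic replicate 1 lay between the isotonic values.

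H2A and H2B pair as dimers on the nucleosome. Of 22 H2A members 7 were tested, 5 with negative and 2 with positive fold changes and a median of −0.73. The groups did not overlap in 4, all lower in hypertonic cells, against 17.5% of all tested genes. Among tested protein-coding genes at 1 RPKM or more, 2094 of 4941 were lower in that way. With no filter on low counts 16 H2A members could be tested, 9 had positive fold changes and the median turned to 0.23. The genes added in this way had at most 22 counts in any library. Some of them, such as HIST1H2APS4 and HIST1H2AL, had reads in hypertonic cells only, so their positive sign was fixed. HIST1H2AC (chr6:26124145-26139102, plus strand), the member with the most reads, measured 29.4 and 36.2 CPM in hypertonic cells and 64.0 and 51.9 CPM in isotonic cells, a log2 fold change of −0.82 ± 0.44. HIST2H2AC measured 1.56 and 1.45 CPM in hypertonic cells and 4.19 and 2.84 CPM in isotonic cells, a log2 fold change of −1.22 ± 0.70. HIST2H2AB measured 1.31 and 1.45 CPM in hypertonic cells and 2.45 and 2.12 CPM in isotonic cells. HIST1H2AG, on the positive side at 0.48 ± 0.62, measured 9.38 and 22.4 CPM in hypertonic cells and 12.7 and 10.1 CPM in isotonic cells, and its fold change turned to −0.29 without hypertonic replicate 2. HIST1H2AH measured 2.53 and 4.40 CPM in hypertonic cells and 4.44 and 2.99 CPM in isotonic cells, with overlap. With total-count scaling the H2A split was 4 negative to 3 positive.

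Of 24 H2B members 10 were tested, with 6 positive and 4 negative fold changes and a median of 0.28. The medians of the other core histones were negative. With no filter that of H2A was positive too, over a set that includes the low-count genes described above. The difference between types was not tested. With total-count scaling 9 of the 10 were positive, with a median of 0.47, and without hypertonic replicate 2 the TMM median was 0.07. The groups did not overlap in 3 of the 10, all higher in hypertonic cells, where 22.5% of all tested genes lay in that way; 0 were lower without overlap, against 17.5% of all tested genes. HIST1H2BE (chr6:26172059-26184655, plus strand) measured 11.6 and 8.06 CPM in hypertonic cells and 3.19 and 1.96 CPM in isotonic cells. Both hypertonic values were above both isotonic values, with a log2 fold change of 1.92 ± 0.66 and an edgeR adjusted p of 0.335. HIST1H2BN measured 26.0 and 34.7 CPM in hypertonic cells and 17.3 and 16.4 CPM in isotonic cells, a log2 fold change of 0.85 ± 0.50; its span contains HIST1H2AL. HIST1H2BD measured 53.0 and 39.4 CPM in hypertonic cells and 39.1 and 31.6 CPM in isotonic cells, a log2 fold change of 0.39 ± 0.45, with only a narrow gap between the groups; it overlaps LARP1P1 on the same strand. HIST1H2BJ measured 31.0 and 82.5 CPM in hypertonic cells and 29.6 and 43.9 CPM in isotonic cells, so the groups overlapped.

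In the other named H2B genes the groups overlapped. HIST2H2BE measured 7.94 and 8.41 CPM in hypertonic cells and 7.90 and 8.62 CPM in isotonic cells, a log2 fold change of −0.01 ± 0.58 that turned to 0.21 with total-count scaling. HIST1H2BF measured 8.62 and 5.93 CPM in hypertonic cells and 10.0 and 5.01 CPM in isotonic cells. HIST1H2BM measured 1.86 and 3.26 CPM in hypertonic cells and 2.82 and 3.04 CPM in isotonic cells, and HIST1H2BK measured 0.760 and 1.45 CPM in hypertonic cells and 1.42 and 1.39 CPM in isotonic cells. HIST1H2BC measured 15.1 and 26.2 CPM in hypertonic cells and 13.6 and 17.6 CPM in isotonic cells.

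**Figure D2:**
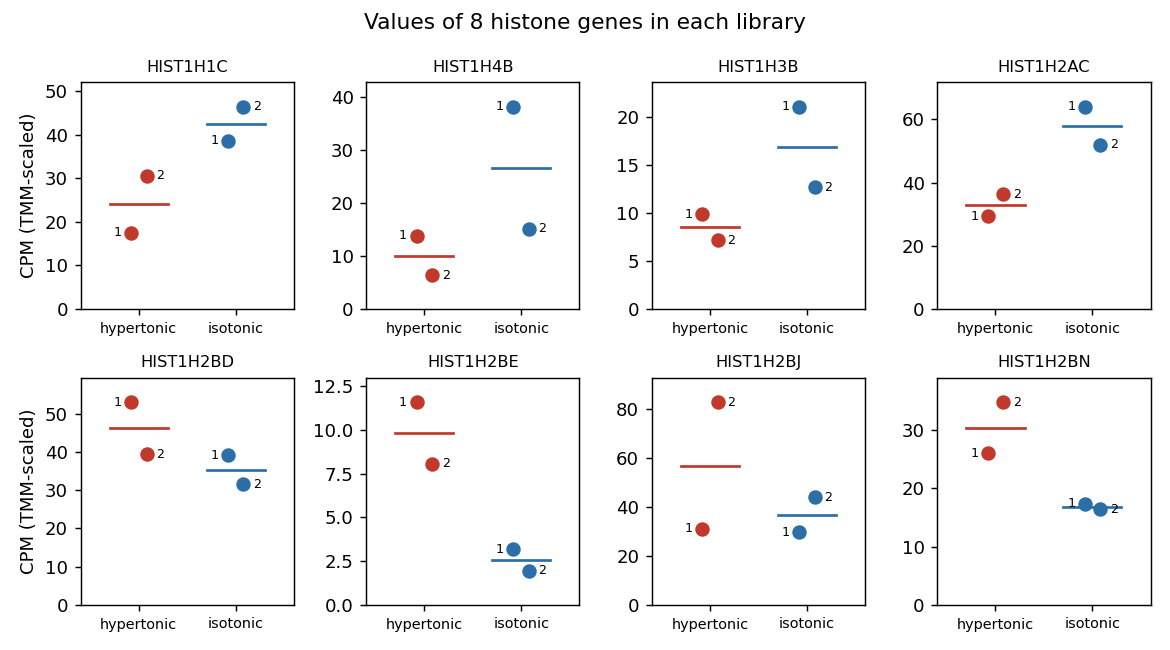
TMM-scaled CPM (linear axis from 0, own scale for each gene) of 8 histone genes in each library; digits are replicate numbers and lines are group means. In the upper row the hypertonic libraries lie below the isotonic ones in all 4 genes, and in the lower row they lie above them in HIST1H2BD, HIST1H2BE and HIST1H2BN but overlap in HIST1H2BJ.

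The summed level of all 84 members was 319 and 441 CPM in hypertonic cells and 457 and 397 CPM in isotonic cells, with p = 0.667 in a two-sided exact permutation test over libraries. The log2 ratio of the group means was −0.17, and it turned to 0.08 with total-count scaling and to 0.05 without hypertonic replicate 1. The exact permutation test cannot give less than 0.33 with 2 against 2 libraries. The H2B sum was 158 and 211 CPM in hypertonic cells and 127 and 130 CPM in isotonic cells, without overlap. Most of it came from the 5 H2B genes with spans over 4 kb, all with positive fold changes. Hypertonic and isotonic means were, for example, 56.8 and 36.7 CPM for HIST1H2BJ and 46.2 and 35.4 CPM for HIST1H2BD. Of the 5 tested H2B genes up to 4 kb, 4 had negative fold changes. The H2B sum was not split by span length. The H4 sum was 53.4 and 68.7 CPM in hypertonic cells and 117 and 86.2 CPM in isotonic cells, without overlap in the other direction. The H3 sum was 33.4 and 22.2 CPM in hypertonic cells and 56.7 and 34.6 CPM in isotonic cells, and the H2A sum was 47.2 and 69.0 CPM in hypertonic cells and 93.2 and 73.2 CPM in isotonic cells. Each of these 4 sums reached the smallest exact permutation p, 0.33. The H1 sum overlapped, at 27.0 and 70.3 CPM in hypertonic cells and 63.4 and 72.5 CPM in isotonic cells. With total-count scaling the H2B sum still did not overlap (149 and 258 CPM in hypertonic cells, 123 and 116 CPM in isotonic cells), but the H2A, H3 and H4 sums did, each with an exact permutation p of 0.667. The H4 sum, for example, was then 50.6 and 83.9 CPM in hypertonic cells and 114 and 76.4 CPM in isotonic cells.

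**Figure D3:**
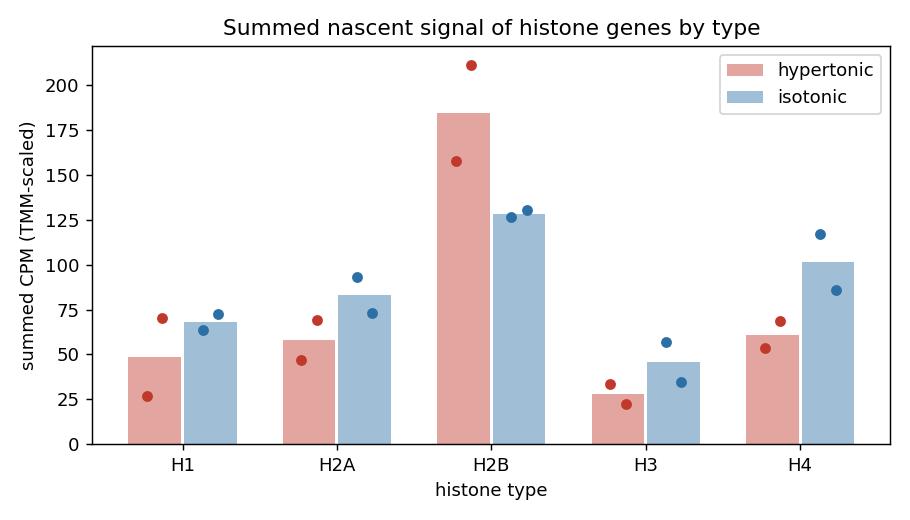
Summed TMM-scaled CPM of the members of each histone type; bars are the mean of 2 libraries and points are libraries. The H2B points of hypertonic cells (158 and 211) lie above those of isotonic cells (127 and 130), and the H4 points of hypertonic cells (53.4 and 68.7) lie below those of isotonic cells (117 and 86.2).

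The positive H2B median went together with the length of the annotated span over which reads were counted. Spans of tested members ranged from 312 to 27646 bases, and 7 were over 4 kb, a limit chosen after the values were seen. Of these 7, 5 had positive fold changes, all of them H2B genes, with a median of 0.41 over the 7 that turned to −0.05 without hypertonic replicate 2. Of the 25 members up to 4 kb, 20 had negative fold changes, with a median of −0.40; with total-count scaling 15 were negative, with a median of −0.24. Over all tested genes the medians were 0.03 above and 0.07 up to that length. Among H2B genes alone, the 5 over 4 kb had a median of 0.63 and the 5 up to 4 kb a median of −0.05, with 4 of these 5 negative. The long spans of other types, HIST1H2AC and HIST1H4H, had negative log2 fold changes, −0.82 ± 0.44 and −0.45 ± 0.51. Each combination of type and length held few genes, so the parts of histone type and span length in the H2B result were not tested.

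In 5 of the 7 long spans the greater part lay beyond the hairpin. HIST1H2BN had 26693 bases of span after its first hairpin, HIST1H2AC 14418, HIST1H2BD 12747, HIST1H2BC 8599 and HIST1H4H 4076, whereas RefSeq gives HIST1H2AC a length of 519 bases and HIST1H2BJ, with an annotated span of 6854 bases, a length of 480 bases. HIST1H2BE was the other way round. Its hairpin lay 12151 bases after the start of the span and 430 before its end, so nearly all of its counted span lies upstream of the hairpin and starts 709 bases after the end of HIST1H2BD. How reads were spread along these spans was not measured. Summed over members up to 4 kb, levels were 133 and 176 CPM in hypertonic cells and 254 and 191 CPM in isotonic cells, without overlap (exact permutation p = 0.33). With total-count scaling they overlapped, at 126 and 216 CPM in hypertonic cells and 247 and 170 CPM in isotonic cells (exact permutation p = 0.667). Summed over members over 4 kb, they were 186 and 265 CPM in hypertonic cells and 203 and 206 CPM in isotonic cells, with overlap (exact permutation p = 1).

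**Figure D4:**
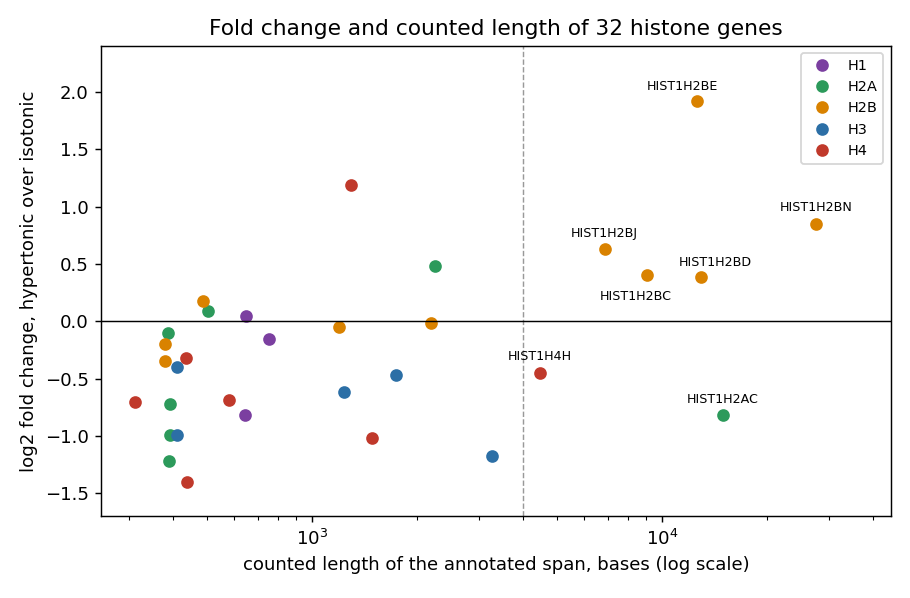
Log2 fold change of hypertonic over isotonic cells against the counted length of the annotated span (log axis), with colours for histone type; the dashed line marks 4 kb and genes beyond it are named. Beyond 4 kb, 5 of 7 genes lie above 0, all H2B, and up to 4 kb 20 of 25 lie below 0.

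Distance to the nearest upstream gene on the same strand was 709 to 139104 bases, with a median of 6834.5, and the neighbour was itself a member for 21 of the 32 tested genes. The median log2 fold change was −0.32 for the 8 members within 2 kb of that gene, −0.19 for the 11 between 2 and 10 kb, and −0.45 for the 13 farther away, so distance alone did not order the values. A narrower class holds genes that start within 10 kb after a same-strand gene at least 4 times as active in isotonic cells. Over all genes 1365 tested genes were in this class, of which 1322 (96.8%) had positive fold changes, with a median of 1.93; the gene's own isotonic level enters both the class and the fold change, so this is a description. Only 2 tested members fell in it, HIST1H2BD after HIST1H1E (1038 bases) and HIST1H2BE after HIST1H2BD (709 bases). In 1092 of the 1365 tested genes of the class each hypertonic library was above each isotonic library. So it was in these 2 members, which were 2 of the 3 members above in this way. Activity here is RPKM, which falls with counted length, and both genes have spans over 4 kb. HIST1H2BD was counted over 12912 bases and HIST1H1E over 754. By CPM the isotonic mean of HIST1H2BD was the higher one, 35.4 against 13.8 for HIST1H1E. Class and span length therefore go together in these 2 genes. The other 30 tested members had a median of −0.37, with 22 negative. Of all 19873 tested genes outside the class, 10062 were negative, with a median of −0.01.

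The class held 12 further members that were too low to test. HIST1H3G, 5793 bases downstream of HIST1H4H, had 22 and 7.31 counts in hypertonic cells and 0 and 0 counts in isotonic cells. Its hypertonic mean of 0.602 CPM was 5.27 times a floor of 3 counts in each isotonic library, a mean of 0.114 CPM. That ratio bounds the isotonic side only. The hypertonic values, 0.929 and 0.275 CPM, rest on few counts and their error is not included. With no filter on low counts it was the single member of 57 tested that passed in edgeR (adjusted p = 0.0261), where 2.45% of 37347 genes did. HIST1H2APS4, an H2A pseudogene 4907 bases downstream of HIST1H4H, had 3.54 and 4 counts in hypertonic cells and 0 and 0 counts in isotonic cells. Distances to neighbours use gene ends of GENCODE release 29. The counted span of HIST1H4H stops short of that end, at chr6:26281055, so HIST1H3G and HIST1H2APS4 lie farther from the counted span. HIST1H4H itself measured 19.5 and 37.9 CPM in hypertonic cells and 36.2 and 42.1 CPM in isotonic cells, with overlap. Of the 12, 4 had reads in hypertonic cells only, 4 had reads in isotonic cells, and 4 were at 0 in every library. A gene at 0 in isotonic cells enters the class with any active same-strand neighbour within 10 kb. The class therefore favours reads in hypertonic cells only, and the share of all genes with such reads was not counted.

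By genomic cluster, the main HIST1 group on chromosome 6 (25726132 to 26322292) held 41 members, 18 of them tested, with 14 negative and 4 positive fold changes and a median of −0.46. The second group (27125897 to 27147515) held 5 members, all tested, with 3 positive and a median of 0.48. In that group hypertonic replicate 2 was the higher hypertonic library in every gene, as in HIST1H2BJ and HIST1H2AG above. The third group (27807444 to 27893843) held 17 members, 5 of them tested, with a median of 0.09. In HIST2 on chromosome 1, 3 of 14 members were tested, all with negative fold changes and a median of −0.73, and in HIST3 on chromosome 1 0 of 4 were tested. Without hypertonic replicate 2 the second group's median turned to −0.29 and the third group's to −0.61.

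Of 15 divergent pairs with starts up to 1 kb apart, 14 joined an H2A and an H2B gene. Both genes were tested in 6, and in 5 of these they had the same sign with TMM scaling, but in only 2 with total-count scaling, since several values lay near 0. HIST1H2BJ and HIST1H2AG, 291 bases apart, had log2 fold changes of 0.63 ± 0.55 and 0.48 ± 0.62. HIST1H2BC and HIST1H2AC, 218 bases apart, had opposite signs, at 0.41 ± 0.55 and −0.82 ± 0.44. HIST2H2BE and HIST2H2AC, 322 bases apart, both had negative values with TMM scaling, at −0.01 ± 0.58 and −1.22 ± 0.70. None of these differences within a pair was tested.

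Among the 52 members that were not tested, 27 had 0 counts in all 4 libraries, and 25 had reads, with at most 22 in any library. The untested members include 39 protein-coding genes and the 13 pseudogenes. A count of 0 allows up to 3 counts, which is 0.127 and 0.118 CPM in the hypertonic libraries and 0.0736 and 0.155 CPM in the isotonic ones, for counting error only. Members with identical annotated sequence were all listed at 0. These are HIST2H3C with HIST2H3A, HIST2H2AA3 with HIST2H2AA4, and HIST2H4B with HIST2H4A; reads from such copies fit both, and the sources used here do not give whether they were discarded. On chromosome 6, 6 neighbouring members from HIST1H2APS3 to HIST1H2BH held at most 1 count in any library, and 8 from HIST1H2BPS2 to HIST1H2BO held at most 2.61. HIST1H2AD was counted over only 8 bases, so its level was not used.

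Genes that act on histone transcripts were given by lists chosen for this purpose, and 0 passed the edgeR threshold. Of 15 factors of histone mRNA processing and decay, all tested, 10 had negative fold changes, with a median of −0.32 that was −0.09 with total-count scaling, where 6 were positive. Leaving out hypertonic replicate 1 turned it to 0.11, and leaving out hypertonic replicate 2 gave −1.07. SLBP, which binds the hairpin, measured 38.2 and 34.6 CPM in hypertonic cells and 53.0 and 37.9 CPM in isotonic cells, a log2 fold change of −0.32 ± 0.45. LSM11, a protein of the U7 particle, measured 15.4 and 10.4 CPM in hypertonic cells and 4.34 and 4.03 CPM in isotonic cells, a log2 fold change of 1.62 ± 0.61. Its partner LSM10 measured 0.591 and 3.14 CPM in hypertonic cells and 2.75 and 2.06 CPM in isotonic cells. ERI1, an exonuclease that trims histone mRNA ends, measured 30.0 and 44.4 CPM in hypertonic cells and 83.8 and 80.3 CPM in isotonic cells, a log2 fold change of −1.14 ± 0.43. CASP8AP2, a component of histone locus bodies, had a log2 fold change of 0.22 ± 0.41. The U7 RNA gene RNU7-1 was counted over only 1 base, so its level was not used.

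Of 11 genes that drive histone transcription, 6 had negative fold changes, with a median of −0.04 that turned to 0.20 with total-count scaling. NPAT measured 103 and 74.7 CPM in hypertonic cells and 104 and 129 CPM in isotonic cells, a log2 fold change of −0.39 ± 0.39. CDK2, the kinase that phosphorylates NPAT, and E2F3, a transcription factor of the cell cycle, had log2 fold changes of −0.76 ± 0.59 and −0.51 ± 0.40. Of 12 replacement histone genes, which are used outside S phase, 11 were tested and 8 had negative fold changes, with a median of −0.11 that turned to 0.10 with total-count scaling. H1F0, a linker histone of resting cells, measured 19.0 and 44.9 CPM in hypertonic cells and 50.2 and 123 CPM in isotonic cells, a log2 fold change of −1.44 ± 0.59. H2AFY, which encodes macroH2A, had −0.85 ± 0.38, H3F3B −0.38 ± 0.48, H3F3A −0.04 ± 0.52, H2AFZ 0.08 ± 0.48 and H2AFX 0.04 ± 0.68. Of 22 histone chaperones and related factors 21 were tested and 16 had negative fold changes, with a median of −0.26; with total-count scaling 10 of the 21 were positive and the median was −0.03. HAT1, which acetylates new H4, had −0.81 ± 0.38, and the helicase subunit MCM2, which binds histones at the fork, had −0.79 ± 0.49.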

How the data were processed

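Bru-seq libraries (2 hypertonic, 2 isotonic) were grouped by the labels. The authors deposited an expected count of reads and an RPKM value for each gene and strand. Headers are missing, so both units were inferred from the numbers. The submitters' processing notes name the builds hg38 and GRCh38 and, without roles, STAR 2.5.3a, bedtools 2.16.2, CASAVA 1.8.2 and Bowtie2 2.3.3. The authors' RPKM values were the count over the counted length and a constant for each library. The protocol mentions strand-specific reads for certain samples. Shared-region entries (48; 3.11 to 3.48% of counts) were left out.

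Strand and type came from GENCODE release 29 by Ensembl identifier. Sense counts were rounded to whole numbers and tested over all genes with edgeR 4.0.16 (R 4.3.3; TMM factors 0.947, 1.22, 0.974 and 0.887; default expression filter; quasi-likelihood test; Benjamini-Hochberg adjustment at 0.05), after a check on simulated data. CPM values use the effective library sizes, and SE is the fold change over the square root of F. DESeq2 1.42.0 and limma-voom 3.58.1, other scalings, no filter, the replicate number as a block, spans without overlap and leaving out each library were alternatives. Start regions are RefSeq's and hairpins were read from GENCODE transcripts. Without molecular identifiers, counts are of reads, so limits cover counting error only.

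Members and lists were chosen with earlier results of these data known. Named members were, for each type, those with the 2 smallest p, the extreme fold changes and the 2 highest isotonic RPKM, and every tested HIST2 to HIST4 gene. Of each related list, the 2 with the smallest p and a set of known factors were named. HIST1H2BC, HIST1H2BD, HIST1H2BJ, HIST1H3G, HIST1H4H and HIST1H2APS4 were added after their values were seen.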

Additional observations from a re-analysis of the deposited data

Results flagged for a closer look

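Reads on the strand opposite to the histone genes, which no comparison above uses, had a higher scaled sum in hypertonic cells. Summed over the 81 members with such an entry, they measured 22.6 and 16.9 CPM in hypertonic replicates 1 and 2 and 15.5 and 10.6 CPM in the isotonic libraries, so the groups did not overlap (two-sided exact permutation p = 0.33, the smallest that 2 against 2 allow). They made up 6.63 and 3.69% of the members' counts in hypertonic cells and 3.28 and 2.60% in isotonic cells. A few entries supplied much of this sum. Over all 4 libraries together, HIST1H1PS1 had 605 such counts, HIST1H2BE 237, HIST1H4I 195 and HIST2H2AB 105. HIST1H1PS1 lies just past the 3′ end of HIST1H3D, which is on the other strand. Whether the groups differ without these entries was not tested. Antisense reads were also a larger share of all counts in hypertonic cells, 8.60 and 6.03% against 3.17 and 3.36% in isotonic cells; the part of that shift in the values at histone genes was not tested.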

How the results depend on the processing

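Over 37 genes and 481 alternative values, 426 kept sign and call, 46 had the other sign without a call (in 15 genes), and 9 were newly called, all without hypertonic replicate 2. The median of all tested genes moved from 0.04 to 0.23 with upper-quartile scaling, 0.26 with total counts, 0.20 with no filter, −0.051 with limma-voom and −0.047 with the replicate block, and to between 0.018 and 0.12 with a library left out. The histone median minus that of all genes was −0.37, and −0.35 to −0.38 under the other scalings and tools. It was −0.28 with no filter, −0.43 without overlapping spans, −0.34 without isotonic replicate 1 and −0.53 without isotonic replicate 2. Leaving out hypertonic replicate 1 gave −0.15, and leaving out hypertonic replicate 2 gave −0.63.

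Calls over all genes were 0 in edgeR, 916 with no filter, 731 with DESeq2 and 384 with the replicate block, and 0 to 4918 with a library left out. Calls among members were 1 with no filter and 0 to 4 with a library left out; without hypertonic replicate 2 the 4 were HIST1H1C (−1.28), HIST1H1E (−1.86), HIST1H2BE (2.15) and HIST1H3G, where 21.4% of 22940 genes were called and the lone hypertonic library is assumed to vary like the isotonic ones. The replicate block called 0 members. Libraries with the same number did not pair (correlation 0.0389 of their deviations).

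With upper-quartile scaling, total counts and no filter, the H2A median was −0.54, −0.50 and 0.23, and that of HIST2 was −0.54, −0.50 and −0.076. The H2B median was 0.48 and 0.47 with the other scalings and 0.084 without overlapping spans. Members up to 4 kb had −0.20 with upper-quartile scaling and −0.18 with no filter. Histone transcription genes had −0.076 with RLE factors and with DESeq2, 0.15 with upper-quartile scaling, 0.20 with total counts, −0.10 with no filter, −0.10 with limma-voom and −0.094 with the replicate block. Members downstream of a more active gene had 1.93 without overlapping spans, where HIST1H2BE was the only tested member. They had 0.39 with a limit of 25 kb and 0.22 with a neighbour at least as active. The log2 ratio of the summed level was −0.17, −0.63 for members under 2 kb and 0.08 with total counts; it was −0.42 to 0.05 with a library left out.

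With a library left out, medians ranged from −0.93 to −0.62 for H2A, 0.069 to 0.42 for H2B, −1.03 to −0.32 for H3, −0.95 to −0.41 for H4, −0.78 to −0.46 for the first HIST1 group, −0.61 to 0.55 for the third and −0.87 to −0.64 for HIST2. For members downstream of a more active gene they ranged from 0.86, over 2 tested members, to 2.3, over 3 tested members. The set that passed the filter changed, so the ends of this range are not like for like. The range was −0.68 to −0.33 for the other members. The ranges were −0.36 to −0.073 for histone transcription genes, −0.68 to −0.13 for replacement histones, −0.64 to −0.19 for chaperones and −0.68 to −0.33 for members up to 4 kb. The number of libraries, 2 in each group, limits every comparison.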

Other observations

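The 2 loop versions of the H4 hairpin, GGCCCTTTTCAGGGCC and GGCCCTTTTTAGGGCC, were found in 5 and 3 H4 genes. The version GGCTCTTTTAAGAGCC was found in 3 H2B and 2 H3 genes. HIST1H2AG had a stem of mixed form, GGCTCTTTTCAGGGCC. The CCAAT pattern was present in the start region of 3 of 13 H4 genes (23.1%) and of all 6 H1, 16 H2A, 13 H2B and 13 H3 genes matched. Of the 18 tested members with a hairpin in the annotated transcript, 9 had over 1000 bases of span after it and 9 fewer, with 5 negative fold changes in each set.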
